A study of Mus musculus with 15 samples.

Results

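The genes described here encode subunits of the mitochondrial respiratory chain and of ATP synthase, measured in PDGFRa-positive cells sorted from mouse kidney. They were chosen by symbol alone, as the Nduf, Sdh, Uqcr, Cyc1, Cox and Atp5 subunit names of the array annotation, and this rule reads no measured value. Of 17097 genes on the array, 78 met this rule. Each was assigned to a complex by the start of its symbol alone, so Ndufa4 counts in complex I and Cox7a2l in complex IV. Whether each protein sits in the complex of its name was not checked. They comprised 32 subunits of complex I, 4 of complex II, 8 of complex III, 17 of complex IV and 17 of ATP synthase, which is also called complex V. Of the 78, 77 passed the filter on dim genes and were tested. The other one, Cox7b2, a testis form of a complex IV subunit, lay between 3.30 and 3.84 on the log2 scale in all 15 arrays. The 13 subunits that mitochondrial DNA itself encodes were not analysed here.

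Complexes I and II take electrons from NADH and succinate, complex III passes them to cytochrome c, and complex IV passes them to oxygen. Complexes I, III and IV pump protons across the inner mitochondrial membrane, and ATP synthase uses the returning protons to make ATP. In kidney, proximal tubule cells are among the richest in mitochondria, since salt and solute reabsorption consumes much ATP, whereas fibroblasts of the interstitium carry fewer.

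The samples were cells sorted by flow cytometry from adult C57BL/6 mice, and each of 5 groups had 3 arrays. Arrays 13 to 15 came from uninjured kidney, for which no time is given. Arrays 1 to 3, 4 to 6 and 7 to 9 came from kidneys taken 3, 7 and 14 days after folic acid, which injures tubules and causes acute kidney injury. Arrays 10 to 12 came from kidneys 14 days after unilateral ureteral obstruction (UUO), a model of progressive fibrosis. Whether the 3 samples of a group are separate animals is not given in the sources used here. The p-values then reflect only how much these samples varied, and part of that may be technical. Values are log2 intensities, given in the order of the array numbers. Means carry ± SD with n = 3, and differences are on the log2 scale with their standard error (SE) and limma's adjusted p. A gene was counted as higher or lower where that p was under 0.05.

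The sort label was set against marker genes before the comparisons. Pdgfra itself stood at 6.01 ± 0.38 in the uninjured group and between 5.28 and 6.69 in the means of the injured groups. The mean of 12 fibroblast markers was 5.39 to 6.24 in the uninjured arrays and 7.66 to 9.77 in every other array. Col1a1, a fibrillar collagen gene, was at 6.72, 6.85 and 6.86 in the uninjured arrays and at 12.50, 12.10 and 12.08 in UUO. The mean of 16 proximal tubule markers was 8.13, 8.53 and 9.41 in the uninjured arrays. It was 6.67, 6.58 and 6.58 on folic acid day 3, 8.29, 6.91 and 5.57 on day 7, 9.08, 9.02 and 6.86 on day 14 and 5.83, 5.36 and 5.55 in UUO. Umod, which marks the thick ascending limb, was at 11.74 ± 0.51 in uninjured arrays and at 9.64 ± 0.76 in UUO. The uninjured arrays thus carried high tubule and low matrix gene signals, and UUO arrays the reverse. Of the tubule markers tested, 12 of 16 proximal and 14 of 14 distal ones were lower in UUO than in uninjured kidney. In such bulk RNA, fewer cells of a type and less RNA per cell cannot be told apart. Macrophage and dendritic cell markers were high on folic acid days 7 and 14, where the mean of 16 lay between 7.54 and 8.89 against 5.05 to 6.41 in all other arrays. Of 15 tested, 12 were higher on day 7 than in uninjured kidney and 11 on day 14. The part of these cells in the differences below was not tested beyond the covariate fits given.

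The members gave bright signals. Their mean log2 values ran from 5.36 to 11.47 with a median of 9.25, and 44 of 77 lay over 9 and 7 under 7. The median over all genes tested was 6.07. Across the 77 members the median value was 9.28, 9.50 and 9.42 in the uninjured arrays and 9.56, 9.34 and 9.30 on folic acid day 3. It was 9.77, 9.38 and 8.51 on day 7, 10.22, 9.40 and 9.36 on day 14, and 8.66, 8.68 and 8.74 in UUO. The 3 UUO arrays lay together below all others except array 6 of day 7, which was the lowest of all. Array 7 of day 14 was the highest. Arrays of day 3 and of uninjured kidney overlapped, although their proximal tubule means did not.

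**Figure D1:**
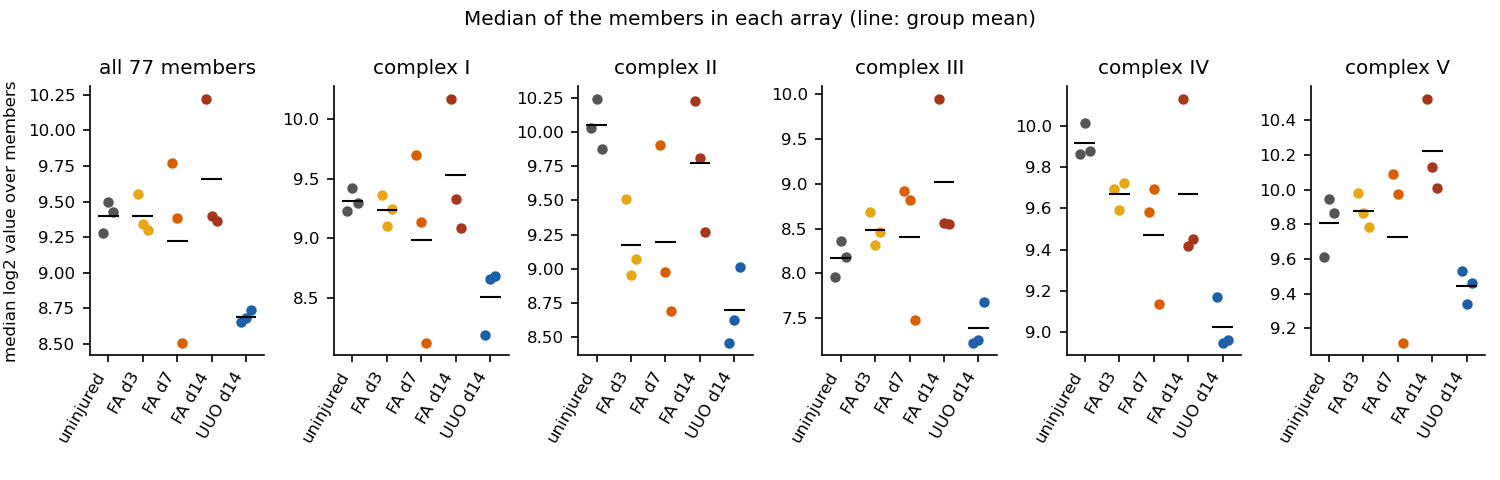
Median log2 value of the members in each array, for all 77 tested members and for each complex (vertical axes, log2, each panel on its own scale), in the 5 groups (horizontal axis; FA, folic acid; d, day). Points are arrays and lines are means of 3; UUO arrays lie low in every panel (8.66 to 8.74 for all members), and days 7 and 14 are spread widely.

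The spread within groups was uneven. The median SD of a member was 0.17 in uninjured kidney, 0.23 on day 3 and 0.26 in UUO, near the values of 0.19, 0.24 and 0.23 over all genes tested. On folic acid day 7 it was 0.62 against 0.29 over all genes, and on day 14 it was 0.46 against 0.30. Within each of these 2 groups the arrays fell in the same order by their member median as by their proximal tubule mean. Array 6, for instance, had the lowest of both on day 7, and array 7 the highest of both on day 14. With 3 arrays a group this order is a description and was not tested.

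**Figure D2:**
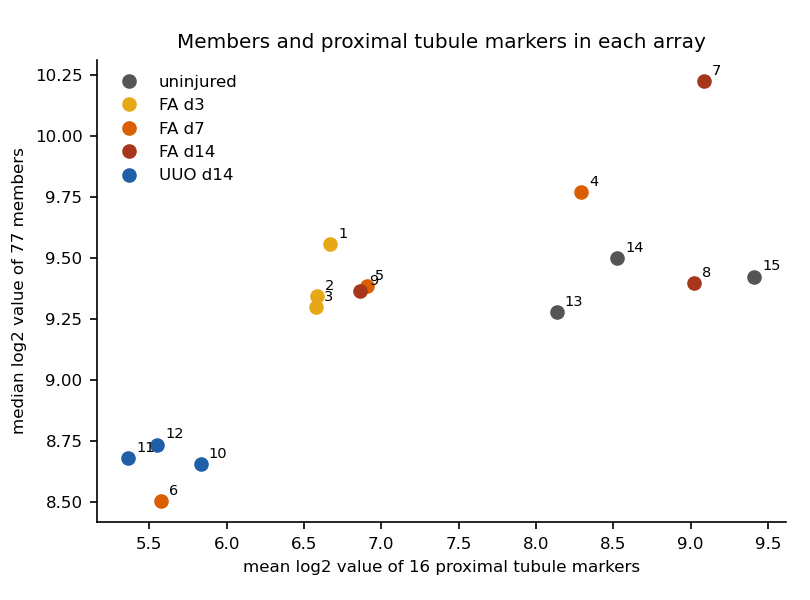
Median log2 value of the 77 members (vertical) against the mean log2 value of 16 proximal tubule markers (horizontal), 1 point per array, labelled with the array number and coloured by group. UUO arrays and array 6 sit at the lower left (tubule mean 5.36 to 5.83), and the day 3 arrays reach the members' level of uninjured arrays at a tubule mean of 6.58 to 6.67.

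An F test for any difference among the 5 groups passed for 19 of 77 members (24.7%), against 15.3% of all genes tested. By complex these were 5 of 32 in complex I, 2 of 4 in complex II, 3 of 8 in complex III, 3 of 16 in complex IV and 6 of 17 in ATP synthase. Leaving out array 6 raised the number to 44, array 4 to 31. It was 12, 9 and 12 without array 10, 11 or 12, and 8, 4 and 6 without array 13, 14 or 15.

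The promoters of the members with the smallest F test p of each complex are shown first, with Cox6a1, of an isoform pair, beside them because its promoter holds 2 of the motifs searched. RefSeq promoters on GRCm38.p6, from 250 bases before to 50 after the start, were found for 63 of the 78 members. In them, 4 short motifs of factors known for nuclear genes of mitochondria were searched on both strands. They were GCATGCGC for NRF1, CCGGAAG for ETS factors such as GABPA, AAGATGGC for YY1 and AAGGTCA for estrogen-related receptors, and matches of different motifs may overlap. Capitals mark the matches. Ndufb7 lies at chr8:83566508-83566807 on the plus strand. Sdha lies at chr13:74350191-74350490, Uqcrfs1 at chr13:30545267-30545566, Cox7a2l at chr17:83514284-83514583, Atp5g1 at chr11:96075582-96075881 and Cox6a1 at chr5:115348909-115349208, all on the minus strand.
Ndufb7: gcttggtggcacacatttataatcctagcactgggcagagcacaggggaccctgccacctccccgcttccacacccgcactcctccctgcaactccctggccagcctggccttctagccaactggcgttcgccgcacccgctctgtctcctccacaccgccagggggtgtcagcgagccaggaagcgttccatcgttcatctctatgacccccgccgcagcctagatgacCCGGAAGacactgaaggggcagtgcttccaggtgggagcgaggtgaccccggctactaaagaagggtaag
Sdha: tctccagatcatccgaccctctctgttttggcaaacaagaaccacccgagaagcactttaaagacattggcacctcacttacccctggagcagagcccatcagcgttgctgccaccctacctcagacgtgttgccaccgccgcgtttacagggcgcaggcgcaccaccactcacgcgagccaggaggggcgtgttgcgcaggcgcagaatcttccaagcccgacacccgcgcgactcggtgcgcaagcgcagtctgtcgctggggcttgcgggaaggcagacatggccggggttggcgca
Uqcrfs1: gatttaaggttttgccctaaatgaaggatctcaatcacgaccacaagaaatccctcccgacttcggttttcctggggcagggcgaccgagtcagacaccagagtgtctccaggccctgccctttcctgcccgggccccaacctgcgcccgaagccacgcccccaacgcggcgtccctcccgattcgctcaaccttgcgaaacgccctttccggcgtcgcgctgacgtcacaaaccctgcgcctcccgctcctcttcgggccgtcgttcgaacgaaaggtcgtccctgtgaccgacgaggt
Cox7a2l: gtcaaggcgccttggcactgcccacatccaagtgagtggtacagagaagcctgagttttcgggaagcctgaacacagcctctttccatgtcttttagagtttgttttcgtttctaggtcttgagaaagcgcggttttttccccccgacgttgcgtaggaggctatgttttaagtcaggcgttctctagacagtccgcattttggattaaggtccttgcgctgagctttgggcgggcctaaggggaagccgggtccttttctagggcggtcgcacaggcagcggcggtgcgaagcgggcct
Atp5g1: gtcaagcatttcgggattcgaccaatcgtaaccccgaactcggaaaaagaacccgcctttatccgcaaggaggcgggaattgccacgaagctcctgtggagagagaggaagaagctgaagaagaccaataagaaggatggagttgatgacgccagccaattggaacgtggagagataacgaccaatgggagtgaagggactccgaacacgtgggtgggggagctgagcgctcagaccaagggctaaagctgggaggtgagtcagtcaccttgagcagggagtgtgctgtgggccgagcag
Cox6a1: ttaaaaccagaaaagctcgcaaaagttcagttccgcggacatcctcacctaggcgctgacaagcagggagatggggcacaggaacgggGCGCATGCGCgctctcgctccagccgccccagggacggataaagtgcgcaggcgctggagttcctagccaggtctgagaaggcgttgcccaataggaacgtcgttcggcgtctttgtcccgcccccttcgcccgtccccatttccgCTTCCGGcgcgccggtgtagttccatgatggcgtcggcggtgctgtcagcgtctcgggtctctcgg

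Of these 6 promoters, Ndufb7 holds 1 ETS match and Cox6a1 holds an ETS match and an NRF1 match that reads on both strands. The other 4 hold none of the letters searched in this window. Among 67 promoters of tested members, 32 (47.8%) held at least 1 of the 4 motifs, against 23.6% of 13689 promoters of the other genes tested. The NRF1 letters were in 10 (14.9%, against 4.34%), the ETS letters in 15 (22.4%, against 14.45%), the YY1 letters in 10 (14.9%, against 3.78%) and the receptor letters in 7 (10.4%, against 3.48%). Median GC content was 57.3% in members and 59.7% in the others. Of the members lower in UUO than in uninjured kidney, 22 had a promoter. The NRF1, ETS, YY1 and receptor letters were in 4.5%, 18.2%, 13.6% and 13.6% of these. In the other 40 tested members with a promoter the shares were 22.5%, 27.5%, 17.5% and 10.0%. This split was not tested. A match is a description of the letters and no sign of binding.

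In UUO the members stood lower than in uninjured kidney. Of 77 members, 28 were lower and 0 higher, where 7.52% of all genes tested were lower and 9.07% higher. The median member differed by -0.80, against -0.01 over all genes, and 67 of the 77 differences were negative. In 51 members all 3 UUO arrays lay below all 3 uninjured arrays, as did 20.9% of all genes tested. By complex, 12 of 32 were lower in complex I, 3 of 4 in complex II, 3 of 8 in complex III, 5 of 16 in complex IV and 5 of 17 in ATP synthase. Of the 28, 12 held through every omission of a single array. The number was 18 and 16 without array 10 or 12, and 15 and 16 without array 14 or 15. With the proximal tubule mean of each array as a covariate, 0 of the 77 passed and the median was 0.18. The UUO and uninjured arrays do not overlap in that mean, so this fit extrapolates.

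**Figure D3:**
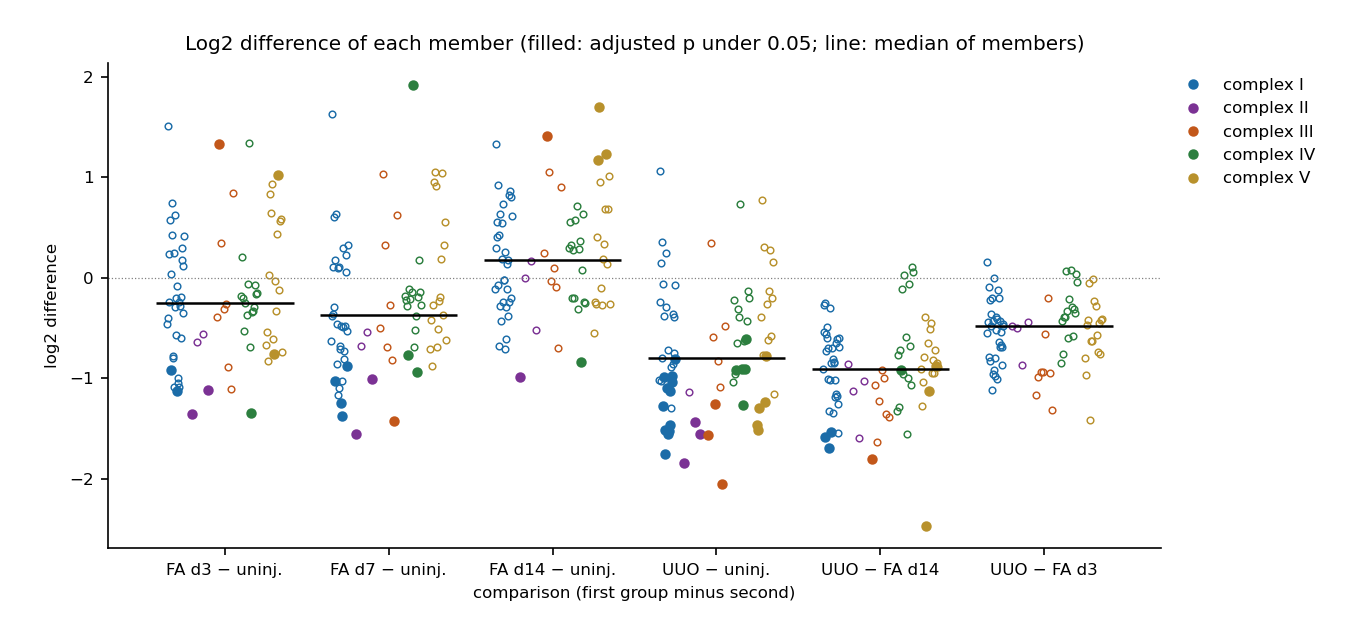
Log2 difference of each of the 77 members (vertical) in 6 comparisons (horizontal; FA, folic acid; d, day; uninj., uninjured), coloured by complex. Filled points passed limma's test at an adjusted p under 0.05, open points did not, and black lines are medians of the members, which run from -0.91 for UUO minus folic acid day 14 to 0.18 for day 14 minus uninjured.

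Folic acid gave fewer differences, in both directions. On day 3, 6 members were lower and 2 higher, against 6.39% and 10.6% of all genes, with a median of -0.25. Quantile normalization turned this into 22 lower and 0 higher. On day 7, 9 were lower and 1 higher, against 4.19% and 7.5%, with a median of -0.37. After median centring 10 were lower and 4 higher on day 7. On day 14, 2 were lower and 4 higher, against 1.47% and 4.2%, with a median of 0.18. After quantile normalization 3 were lower and 0 higher on day 14, and the median was -0.06. Without array 7 it was -0.11 and 1 member passed. The day 14 count was 0 without array 13 or 15, 1 without array 14, 2 without array 3 and 3 without array 2 or 11. With the proximal tubule covariate, 11 members passed on day 14, all 6 of the above among them, and 9 of the 11 were higher. The direction turned on the earlier days with this covariate, where 9 members were higher and 0 lower on day 3, and 6 were higher and 1 lower on day 7. Day 3 and uninjured arrays do not overlap in the tubule mean, so the day 3 fit extrapolates. With the macrophage mean as the covariate, 1 passed on day 3 and 0 on days 7 and 14. None of these 3 groups overlaps with uninjured kidney in the macrophage mean.

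The single arrays also set the numbers of days 3 and 7. The day 3 count was 5 without array 2, 13, 14 or 15, and 13, 18 and 15 without array 4, 6 or 7. The day 7 count was 19 without array 4 or 7, 6 without array 5, and 5, 4 and 4 without array 13, 14 or 15.

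UUO and folic acid could be set side by side on day 14. Against folic acid day 14, 8 members were lower in UUO and 0 higher, where 1.75% of all genes tested were lower and 1.28% higher. The median was -0.91, and 74 of 77 differences were negative. In 58 members the UUO arrays lay below all folic acid day 14 arrays, as did 11.1% of all genes. The count of 8 rested on single arrays. It was 0 without array 7, 2 without array 8, 1 without array 10, 11 or 12, 5 without array 2 or 3 and 4 without array 13 or 14. It was 18, 25 and 23 without array 4, 6 or 9. With the proximal tubule covariate it was 0 and the median was -0.09, again between groups that do not overlap in that mean.

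The remaining comparisons gave 0 members or 1. Between UUO and folic acid day 3, limma passed 0 members (26 at an unadjusted p under 0.05), where 1.13% of all genes passed and 12.9% had such an unadjusted p. Still, 73 of 77 differences were negative with a median of -0.48, and in 42 members all UUO arrays lay below all day 3 arrays, as did 12% of all genes. Between UUO and day 7, limma passed 0 members (15 unadjusted), against 0.274% and 9.12% of all genes, and 70 of 77 differences were negative. The count was 1 without array 6.

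Between folic acid days, 0 members passed from day 3 to day 7 (3 unadjusted), against 0.695% and 11.1% of all genes. From day 7 to day 14, 0 passed (19 unadjusted), against 0.0518% and 8.83%. The count was 1 without array 4. Cox7a1 alone passed from day 3 to day 14 (10 members unadjusted), against 3.05% and 16.4% of all genes. Leaving out any of 11 arrays ended that call, namely arrays 1 to 3, 7, 8 and 10 to 15. Without array 6, 3 members passed.

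**Figure D4:**
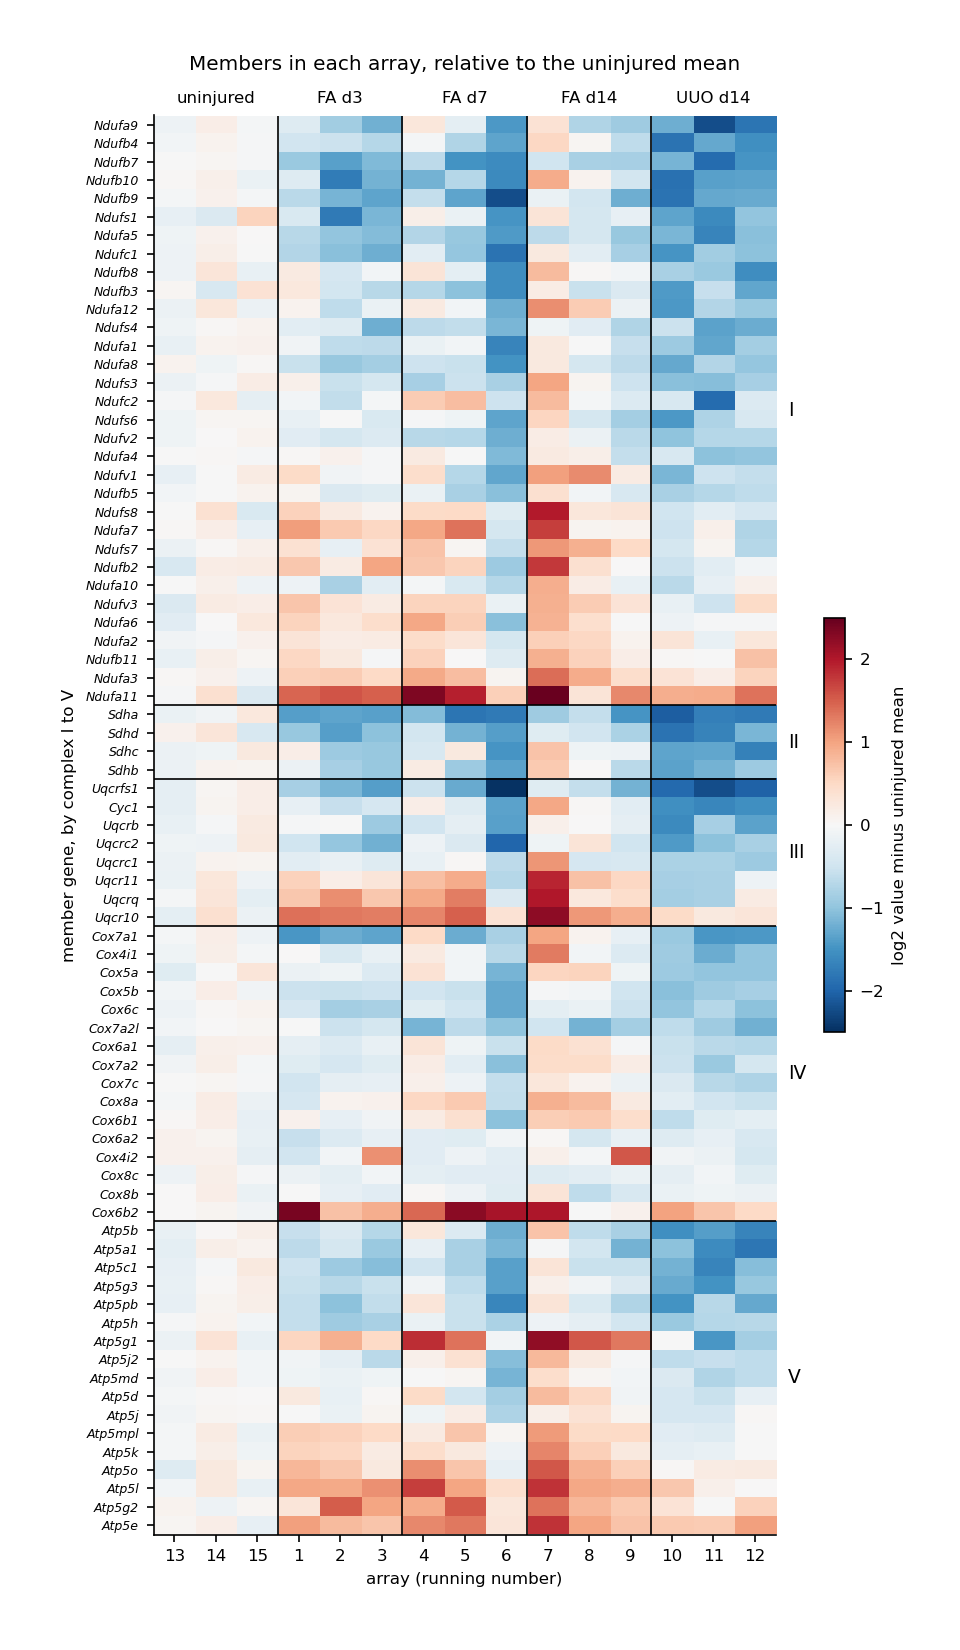
Log2 value of each tested member minus its uninjured mean (colour, clipped at 2.5 in either direction), for 77 members in rows by complex I to V and 15 arrays in columns by group (FA, folic acid; d, day). Rows within a complex run from the most negative to the most positive UUO difference; blue fills most of the UUO columns and the column of array 6, and red that of array 7.

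All 4 subunits of complex II had negative differences from uninjured kidney on days 3 and 7 and in UUO. The flavoprotein Sdha, which oxidizes succinate, had 11.14, 11.22 and 11.58 in the uninjured arrays, 9.93, 9.99 and 9.95 on folic acid day 3, 10.23, 9.48 and 9.55 on day 7, 10.42, 10.73 and 9.84 on day 14 and 9.25, 9.61 and 9.55 in UUO. No array of any injured group reached the uninjured range. The differences from uninjured kidney were -1.36 (SE 0.24, adjusted p = 0.00246) on day 3, -1.56 (SE 0.24, adjusted p = 0.00141) on day 7, -0.99 (SE 0.24, adjusted p = 0.0336) on day 14 and -1.84 (SE 0.24, adjusted p = 0.000318) in UUO, where Sdha was 3.59-fold lower. Its calls on days 3 and 7 and in UUO held through every omission of a single array, while that of day 14 ended without array 7, 9, 13, 14 or 15. In the fit with the tubule covariate Sdha passed on days 7 and 14 but not on day 3 or in UUO. Of the other 3 probe sets of Sdha, 1 passed the filter on dim signals and was tested. It was also lower in UUO (-1.14, adjusted p = 0.039 over all probe sets) and gave -0.70 and -0.79 on days 3 and 7, which did not pass.

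Sdhd, a membrane anchor, had 10.83, 11.03 and 10.31 in the uninjured arrays, 9.78, 9.35 and 9.70 on folic acid day 3, 10.26, 9.54 and 9.35 on day 7, 10.42, 10.24 and 9.93 on day 14 and 8.87, 9.04 and 9.58 in UUO. The UUO, day 3 and day 7 arrays all lay below the uninjured ones. Sdhd was 2.94-fold lower in UUO, a difference of -1.56 (SE 0.28, adjusted p = 0.00227), and it was lower on day 3 at -1.12 (SE 0.28, adjusted p = 0.0152) and on day 7 at -1.01 (SE 0.28, adjusted p = 0.0335). Its day 3 call ended without array 2 or 14. The day 7 call ended without array 5, 6, 13 or 14 and with only the 6 arrays compared. Sdhc, the other anchor, was lower only in the UUO comparison among those with uninjured kidney, at -1.43 (SE 0.41, adjusted p = 0.0308). That call ended without any of 6 arrays (10 to 15). The iron-sulfur subunit Sdhb did not pass in UUO, at -1.14 (SE 0.39, adjusted p = 0.0653), with 8.05, 8.21 and 8.47 there and 9.24, 9.46 and 9.44 in uninjured kidney. Its arrays did not overlap between those groups. The probe set used for Sdha carries the letter s and that for Sdhd the letter x, which mark sets that may also match related transcripts.

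In complex I, the accessory membrane arm subunit Ndufb7 had 11.84, 11.89 and 11.82 in the uninjured arrays, 10.93, 10.50 and 10.75 on folic acid day 3, 11.19, 10.35 and 10.28 on day 7, 11.34, 11.04 and 11.03 on day 14 and 10.68, 9.92 and 10.38 in UUO. It was lower on day 3 at -1.13 (SE 0.25, adjusted p = 0.00834), on day 7 at -1.25 (SE 0.25, adjusted p = 0.00687) and in UUO at -1.52 (SE 0.25, adjusted p = 0.00132), and no injured array reached the uninjured ones. A second probe set of Ndufb7 gave 0.89 on day 3 and on day 7, 1.51 on day 14 and 0.09 in UUO, none of which passed. The call of Ndufb7 therefore belongs to 1 of its 2 probe sets, and it was lost when they were averaged.

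Ndufa5, an accessory subunit of the peripheral arm, had 11.34, 11.54 and 11.44 in the uninjured arrays, 10.76, 10.45 and 10.35 on folic acid day 3, 10.70, 10.49 and 10.03 on day 7, 10.79, 11.01 and 10.49 on day 14 and 10.29, 9.79 and 10.40 in UUO. Its differences were -0.92 (SE 0.21, adjusted p = 0.0113) on day 3, -1.03 (SE 0.21, adjusted p = 0.00896) on day 7 and -1.28 (SE 0.21, adjusted p = 0.00161) in UUO, and the uninjured arrays lay above all others. Its second probe set pointed the same way (-0.35, -0.58 and -1.06) without passing.

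Among the other accessory subunits, Ndufa9 had the most negative UUO difference of complex I, -1.76 (SE 0.44, adjusted p = 0.0162), with 7.20, 6.21 and 6.60 in UUO and 8.30, 8.60 and 8.38 in uninjured kidney. This call ended without array 11 or 14. Ndufb4 was lower in UUO at -1.55 (SE 0.32, adjusted p = 0.00517) against uninjured kidney and at -1.53 (SE 0.32, adjusted p = 0.0225) against folic acid day 14. Its values were 9.98, 10.12 and 10.01 in the uninjured arrays, 9.56, 9.51 and 9.32 on folic acid day 3, 9.99, 9.28 and 8.71 on day 7, 10.55, 10.09 and 9.40 on day 14 and 8.19, 8.76 and 8.50 in UUO. Ndufb10 was likewise lower in both, at -1.52 (SE 0.39, adjusted p = 0.0183) and -1.70 (SE 0.39, adjusted p = 0.0373). Against uninjured kidney, the call of Ndufb10 ended without array 10, 13 or 14. Against folic acid day 14, the call of Ndufb10 ended without any of 8 arrays (3, 7, 8 and 10 to 14). That of Ndufb4 ended without any of 4 (7, 8, 10 and 12) and with averaged probe sets. Ndufa12 was lower in UUO than on folic acid day 14, at -1.59 (SE 0.39, adjusted p = 0.049), a call that 12 of the 15 arrays could each end when left out, as could median centring.

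Ndufb9, also of the membrane arm, was lower on day 7 at -1.38 (SE 0.37, adjusted p = 0.0309) and in UUO at -1.46 (SE 0.37, adjusted p = 0.017). The day 7 call ended without array 5, 6, 13, 14 or 15, and the UUO call without array 10 or 14. Ndufb3, Ndufc1, Ndufs3, Ndufs4 and Ndufa8 passed in UUO alone among the comparisons with uninjured kidney, with differences from -0.98 to -1.13. On day 7 they gave -1.095, -1.03, -0.73, -0.81 and -0.86 without passing, and Ndufb3 missed at an adjusted p of 0.0501. None of them passed between UUO and day 7, so these calls are not particular to UUO by size. Of these, the call of Ndufs3 ended without any of 12 arrays (all but 1, 7 and 9), that of Ndufc1 without any of 11 (all but 4, 6, 7 and 9) and those of Ndufa8, Ndufs4 and Ndufb3 without any of 5, 5 and 4. Of the core subunits that carry electrons, Ndufv2 was lower on day 7 at -0.88 (SE 0.21, adjusted p = 0.0182) and in UUO at -0.81 (SE 0.21, adjusted p = 0.0192). The day 7 call ended without array 6, 14 or 15 or with averaged probe sets, and the UUO call without array 10, 14 or 15. Ndufs1, the largest iron-sulfur subunit, and Ndufv1, which binds NADH, did not pass in any of the 4 comparisons with uninjured kidney. Ndufs1 had 7.99, 7.83 and 8.76 in the uninjured arrays and 6.88, 6.60 and 7.21 in UUO, a difference of -1.30 (SE 0.44, adjusted p = 0.0635). Ndufv1 gave -0.75 (SE 0.39, adjusted p = 0.219) there.

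Ndufa11 stood at the other end. This accessory membrane subunit had 7.72, 8.16 and 7.39 in the uninjured arrays, 9.21, 9.33 and 9.25 on folic acid day 3, 10.09, 9.69 and 8.36 on day 7, 10.22, 8.07 and 8.95 on day 14 and 8.66, 8.68 and 9.10 in UUO. Its differences from uninjured kidney were the highest of the 77 in UUO, at 1.06 (SE 0.50, adjusted p = 0.174), and on day 3, at 1.51 (SE 0.50, adjusted p = 0.0556). They were 1.63 (SE 0.50, adjusted p = 0.0527) on day 7 and 1.33 (SE 0.50, adjusted p = 0.148) on day 14, so none of the 4 passed. All arrays of day 3, day 7 and UUO lay above the uninjured ones, and on day 14 array 7 lay well above arrays 8 and 9.

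**Figure D5:**
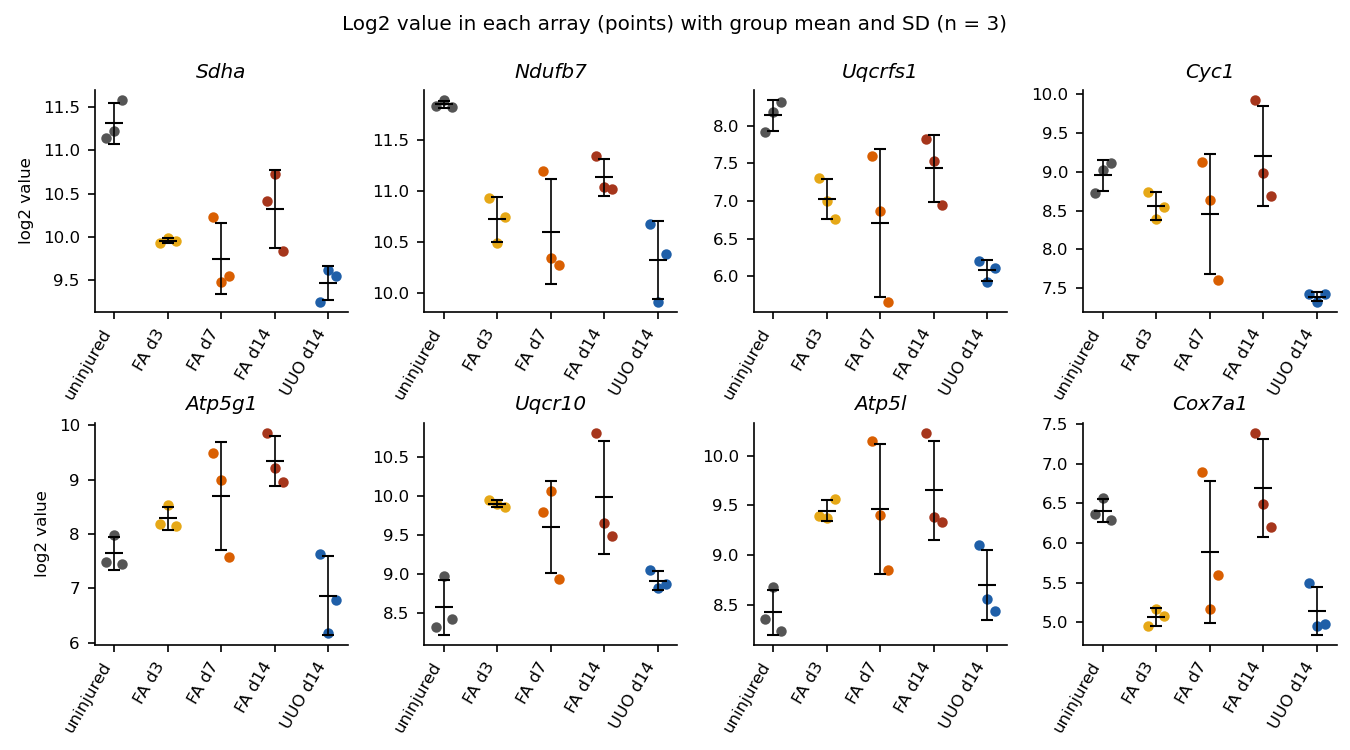
Log2 value of 8 members in each array (points) with the mean and SD of 3 arrays (bars), in the 5 groups (horizontal axis; FA, folic acid; d, day), each panel on its own log2 scale. Sdha and Ndufb7 stand highest in uninjured kidney, Cyc1 lowest in UUO, Uqcrfs1 low in UUO and in array 6 of day 7, and Uqcr10 and Atp5l higher on folic acid days 3 and 14 than in uninjured kidney.

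In complex III, 3 of 8 subunits were lower in UUO and 1 was higher on folic acid days 3 and 14. The Rieske iron-sulfur protein Uqcrfs1 had 7.91, 8.19 and 8.31 in the uninjured arrays, 7.31, 7.01 and 6.77 on folic acid day 3, 7.59, 6.87 and 5.66 on day 7, 7.83, 7.54 and 6.95 on day 14 and 6.20, 5.93 and 6.11 in UUO. It had the most negative UUO difference of all 77 members, -2.06 (SE 0.38, adjusted p = 0.0031), a 4.17-fold lower value, and was lower on day 7 at -1.43 (SE 0.38, adjusted p = 0.0309). The day 7 call ended without any of 5 arrays (5, 6 and 13 to 15). The UUO arrays lay below every array of the other groups except array 6.

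Cytochrome c1, encoded by Cyc1, had 8.73, 9.02 and 9.12 in the uninjured arrays, 8.75, 8.39 and 8.54 on folic acid day 3, 9.12, 8.63 and 7.61 on day 7, 9.92, 8.99 and 8.69 on day 14 and 7.43, 7.33 and 7.42 in UUO. The UUO arrays were the lowest of the 15. Cyc1 was lower in UUO than in uninjured kidney at -1.57 (SE 0.35, adjusted p = 0.00944) and than on folic acid day 14 at -1.81 (SE 0.35, adjusted p = 0.0186). The latter call ended without any of 4 arrays (7 and 10 to 12). Against day 3, where the 3 UUO arrays of Cyc1 also lay below, the difference of -1.17 (SE 0.35, adjusted p = 0.162) did not pass.

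The small subunit Uqcrb was lower in UUO at -1.26 (SE 0.32, adjusted p = 0.0165), while the core proteins Uqcrc1 and Uqcrc2 gave -0.83 (SE 0.33, adjusted p = 0.107) and -1.09 (SE 0.41, adjusted p = 0.0893). The call of Uqcrb ended without array 10, 12 or 15. Uqcr10, another small subunit, was higher instead. It had 8.32, 8.98 and 8.41 in the uninjured arrays, 9.95, 9.90 and 9.86 on folic acid day 3, 9.80, 10.07 and 8.93 on day 7, 10.81, 9.65 and 9.48 on day 14 and 9.05, 8.81 and 8.86 in UUO. Uqcr10 was higher on day 3 at 1.33 (SE 0.34, adjusted p = 0.0191) and on day 14 at 1.41 (SE 0.34, adjusted p = 0.032), and in UUO it gave 0.34 (SE 0.34, adjusted p = 0.559). Its other 2 probe sets gave -1.60 and -0.60 on day 3 and 0.72 and 0.89 on day 14. Averaged over its probe sets, Uqcr10 differed by -0.29 on day 3 (adjusted p = 0.735), so its day 3 direction depends on the probe set. Averaging also ended the day 14 call. Quantile normalization ended both calls, only the 6 arrays compared ended that of day 14, and so did leaving out array 13 or 15 on either day, array 1 on day 3 and array 7 on day 14.

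Complex IV subunits come partly as pairs for different tissues, of which Cox7a1 is the heart and muscle form and Cox7a2 the general form. Cox7a1 had 6.37, 6.57 and 6.29 in the uninjured arrays, 4.95, 5.16 and 5.08 on folic acid day 3, 6.90, 5.16 and 5.60 on day 7, 7.39, 6.49 and 6.20 on day 14 and 5.49, 4.96 and 4.98 in UUO. On day 3 and in UUO its arrays lay below all uninjured ones, and those of days 7 and 14 overlapped with them. It was lower on day 3 at -1.34 (SE 0.39, adjusted p = 0.0329) and in UUO at -1.27 (SE 0.39, adjusted p = 0.0424), and higher on day 14 than on day 3 at 1.63 (SE 0.39, adjusted p = 0.0426). Its day 3 call ended without any of 6 arrays (1 to 3 and 13 to 15), and its UUO call without any of 10 (1 to 3, 8 and 10 to 15). Cox7a2 did not pass against uninjured kidney and gave -0.64 (SE 0.25, adjusted p = 0.104) in UUO.

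Cox7a2l had 10.31, 10.37 and 10.43 in the uninjured arrays, 10.35, 9.84 and 9.93 on folic acid day 3, 9.22, 9.72 and 9.36 on day 7, 9.88, 9.19 and 9.52 on day 14 and 9.74, 9.48 and 9.17 in UUO. It was lower on day 7 at -0.94 (SE 0.21, adjusted p = 0.0143), on day 14 at -0.84 (SE 0.21, adjusted p = 0.0385) and in UUO at -0.91 (SE 0.21, adjusted p = 0.0118). The day 14 call ended without any of 7 arrays (3, 8, 9, 11 and 13 to 15). The day 7 call ended without array 15, and the UUO call without array 12. A second probe set of Cox7a2l passed in the same 3 comparisons (-1.16, -1.03 and -1.13), and another pointed the same way without passing.

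The testis form Cox6b2 was higher on day 7 at 1.92 (SE 0.51, adjusted p = 0.0309), with 7.10, 7.92 and 7.72 there against 5.68, 5.75 and 5.57 in uninjured kidney. Any of 5 arrays (5, 6 and 13 to 15) ended this call when left out. Its general partner Cox6b1 gave -0.14 (SE 0.29, adjusted p = 0.805) on day 7. Of the other pairs, Cox6a1 was lower in UUO than on folic acid day 14 at -0.92 (SE 0.21, adjusted p = 0.036), and its muscle form Cox6a2 gave -0.11 (SE 0.15, adjusted p = 0.807). Any of 9 arrays (1 to 3, 7, 8, 10 to 12 and 14) or averaged probe sets ended the call of Cox6a1. Cox4i1 and its lung form Cox4i2 did not pass against uninjured kidney, nor did Cox8a and its muscle form Cox8b. In UUO they gave -1.04, -0.23, -0.44 and -0.14. Of the general subunits, Cox5b was lower on day 7 at -0.78 (SE 0.20, adjusted p = 0.0271) and in UUO at -0.92 (SE 0.20, adjusted p = 0.00783). The day 7 call of Cox5b ended without array 6, 13, 14 or 15. Cox6c and Cox7c were lower in UUO at -0.91 (SE 0.23, adjusted p = 0.0162) and -0.61 (SE 0.19, adjusted p = 0.044), and Cox5a gave -0.96 (SE 0.32, adjusted p = 0.0595). Median centring or leaving out any of 9 arrays (2, 3, 5, 8 and 11 to 15) ended the call of Cox7c. Leaving out array 12, 14 or 15 ended that of Cox6c.

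In ATP synthase, 5 of 17 subunits were lower in UUO, namely Atp5a1, Atp5b, Atp5c1, Atp5h and Atp5g3, and 3 were higher on folic acid day 14, namely Atp5g1, Atp5l and Atp5e. The beta subunit Atp5b, which holds the catalytic sites, had 9.53, 9.76 and 9.87 in the uninjured arrays, 9.15, 9.37 and 9.01 on folic acid day 3, 10.00, 9.38 and 8.51 on day 7, 10.44, 9.09 and 8.91 on day 14 and 8.19, 8.34 and 8.06 in UUO. It was lower in UUO at -1.52 (SE 0.39, adjusted p = 0.0188), as were the alpha subunit Atp5a1 at -1.47 (SE 0.31, adjusted p = 0.00686) and the central stalk subunit Atp5c1 at -1.30 (SE 0.28, adjusted p = 0.00783). For these 3 the UUO arrays lay below all uninjured arrays. The call of Atp5b ended without array 12, 14 or 15, while those of Atp5a1 and Atp5c1 held through every omission of a single array. Atp5h, a peripheral stalk subunit, was lower on day 3 at -0.77 (SE 0.17, adjusted p = 0.00756) and in UUO at -0.78 (SE 0.17, adjusted p = 0.00667). Its second probe set gave 0.02 and -0.28, which did not pass.

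The membrane ring of ATP synthase is built of one protein that Atp5g1, Atp5g2 and Atp5g3 all encode. Atp5g1 had 7.49, 7.99 and 7.45 in the uninjured arrays, 8.19, 8.53 and 8.14 on folic acid day 3, 9.49, 9.00 and 7.58 on day 7, 9.86, 9.21 and 8.96 on day 14 and 7.63, 6.19 and 6.79 in UUO. Every folic acid day 14 array lay above every uninjured and UUO array. It was higher on day 14 than in uninjured kidney at 1.70 (SE 0.46, adjusted p = 0.0495), and lower in UUO than on day 14 at -2.47 (SE 0.46, adjusted p = 0.0144), the most negative member difference there. The day 14 call against uninjured kidney ended without any of 11 arrays, that is all but arrays 4, 6, 10 and 11, and after quantile normalization, with trend and robust options, with no filter and with averaged probe sets. The UUO call against day 14 ended without array 7 or 11. Atp5g3 was lower in UUO than in uninjured kidney at -1.24 (SE 0.27, adjusted p = 0.00732) and than on day 14 at -1.13 (SE 0.27, adjusted p = 0.042). The latter call ended without any of 12 arrays, that is all but arrays 4, 6 and 9, and with no filter or only the 6 arrays compared. Atp5g2 did not pass in either, at 0.30 (SE 0.34, adjusted p = 0.611) and -0.65 (SE 0.34, adjusted p = 0.367).

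Atp5l, which encodes the small membrane subunit g, had 8.36, 8.68 and 8.25 in the uninjured arrays, 9.40, 9.37 and 9.57 on folic acid day 3, 10.15, 9.41 and 8.85 on day 7, 10.23, 9.39 and 9.34 on day 14 and 9.10, 8.56 and 8.44 in UUO. It was higher on day 3 at 1.02 (SE 0.32, adjusted p = 0.0452) and on day 14 at 1.22 (SE 0.32, adjusted p = 0.043), and all arrays of days 3 and 14 lay above the uninjured ones. Quantile normalization ended both calls, as did leaving out any of 9 arrays on day 3 (1 to 3, 5 and 11 to 15) and any of 11 on day 14 (all but 4, 6, 8 and 10). Atp5e, the epsilon subunit of the stalk, was higher on day 14 at 1.17 (SE 0.30, adjusted p = 0.0392), a call that quantile normalization or any of 9 arrays (2, 3, 7, 8, 10, 11 and 13 to 15) ended, and its UUO difference of 0.77 (SE 0.30, adjusted p = 0.0974) did not pass. Atp5mpl, a small membrane subunit, was lower in UUO than on day 14 at -0.88 (SE 0.20, adjusted p = 0.0346), unless array 7, 8, 10, 11, 12 or 13 was left out.

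Of the 77 tested members, 41 passed in none of the 10 comparisons, namely 19 of complex I, 1 of complex II, 4 of complex III, 9 of complex IV and 8 of ATP synthase. The share of all genes that passed in none is not given here, so this count is a description only. The UUO differences of these 41 from uninjured kidney ran from -1.30 in Ndufs1 to 1.06 in Ndufa11. Of them, 35 were negative, against 50.6% of all genes tested. Atp5pb, a peripheral stalk subunit, had 8.84, 9.13 and 9.19 in uninjured arrays and 7.56, 8.36 and 7.77 in UUO, a difference of -1.16 (SE 0.41, adjusted p = 0.0776). Its groups did not overlap, yet it missed the threshold. Atp5o, which fastens the stalk to the catalytic head, had 9.23, 9.79 and 9.61 in uninjured arrays and 11.10, 10.42 and 10.15 on folic acid day 14, a difference of 1.01 (SE 0.33, adjusted p = 0.0961). Ndufa3, a small membrane subunit of complex I, gave 0.92 (SE 0.25, adjusted p = 0.0523) on day 14, where its arrays also lay above all uninjured ones.

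Genes that work with these complexes were taken from lists of electron carriers, citrate cycle enzymes, assembly factors and regulators. Of 13 tested carriers and exchangers, 5 (38.5%) were lower and 0 higher in UUO than in uninjured kidney, against 7.52% and 9.07% of all genes tested. Cycs, the somatic cytochrome c that links complexes III and IV, had 10.06, 10.26 and 10.06 in uninjured arrays and 7.68, 7.48 and 7.91 in UUO, a difference of -2.44 (SE 0.38, adjusted p = 0.000987). Etfa, which feeds electrons from fatty acid oxidation, gave -2.27 (SE 0.30, adjusted p = 0.000299), and the phosphate carrier Slc25a3 gave -0.79 (SE 0.14, adjusted p = 0.00187). Slc25a5, an ADP/ATP exchanger, and Gpd2 were the other 2. Etfa was also lower on days 3, 7 and 14, and Cycs on days 3 and 7. The ADP/ATP exchanger Slc25a4 was higher on day 3 at 0.69 (SE 0.16, adjusted p = 0.0124).

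Of 15 citrate cycle and pyruvate entry genes, 4 (26.7%) were lower in UUO, among them Dlat of pyruvate dehydrogenase at -1.33 (SE 0.30, adjusted p = 0.00935), Ogdh at -1.25 (SE 0.32, adjusted p = 0.0184) and fumarase Fh1 at -1.62 (SE 0.43, adjusted p = 0.022). Citrate synthase Cs was higher on day 3 at 0.71 (SE 0.21, adjusted p = 0.0375). Of 39 assembly factors 3 (7.7%) were lower in UUO, a share near the 7.52% of all genes, among them the copper chaperone Cox17 at -1.33 (SE 0.24, adjusted p = 0.00245). Uqcc2, an assembly factor of complex III, was higher on days 3, 7 and 14, at 1.37 (SE 0.31, adjusted p = 0.0232) on day 14. The list medians in UUO were -0.25 for carriers, -0.84 for the citrate cycle and -0.12 for assembly factors.

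Of 19 regulators of mitochondrial genes, 4 (21.1%) were lower and 0 higher in UUO, against 7.52% and 9.07% of all genes tested, with a median of -0.16. The coactivator Ppargc1b gave -1.47 (SE 0.32, adjusted p = 0.00765) and the nuclear receptors Ppara and Esrrg gave -2.23 (SE 0.55, adjusted p = 0.0155) and -1.87 (SE 0.49, adjusted p = 0.0211). All 3 were lower on day 3 too. Nrf1, Esrra and Tfam, which act on many respiratory chain genes or on mitochondrial DNA, did not pass against uninjured kidney, and in UUO gave -0.55 (SE 0.25, adjusted p = 0.155), -0.62 (SE 0.30, adjusted p = 0.188) and -0.81 (SE 0.31, adjusted p = 0.0978). On day 14 after folic acid, Polrmt, the mitochondrial RNA polymerase, was higher at 2.06 (SE 0.51, adjusted p = 0.0343) and Gabpa, an ETS factor, was lower at -1.36 (SE 0.36, adjusted p = 0.0477).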

How the data were processed

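RNA of sorted cells was amplified and biotin-labelled, per the labels' protocols. The authors deposited log2 intensities, made with RMA per the submitters' processing notes, for 45141 probe sets on 15 arrays. These notes also name affy and limma, without versions. No detection calls were used, so folds against dim values are compressed, and the number of arrays limits the precision. Probe sets of 1 gene (28898) gave 17097 genes, each represented by its probe set with the highest mean. Of the members' chosen probe sets, 7 carry the letter s and 7 the letter x in their names, which mark sets that may match related transcripts, and 37 members had more than 1 probe set.

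Genes above the 40th percentile of an array in at least 3 arrays were tested (13523). A linear model with 5 group means (limma 3.58.1, R 4.3.3) used all 15 arrays, leaving 10 residual degrees of freedom, and gave 10 pairwise comparisons and an F test. Tests were 2-sided with Benjamini-Hochberg adjustment over all genes tested. The script was tested on simulated data. The covariate fits add the array's mean of 16 proximal tubule, 14 distal nephron or 16 macrophage markers. The last 2 of these fits and the fit without arrays 4, 7 and 8 were chosen after seeing the data. Other settings were quantile normalization, median centring, trend and robust options, array weights, only the 6 arrays compared, other filters, the mean of probe sets and each array left out.

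The rule for the members reads symbols only, but this gene family, the gene lists and the tests were chosen with earlier results of these data known. The text names, per comparison, the 3 lowest and 3 highest members, members called against the direction of the median member, the Sdh subunits, isoform pairs and fixed core subunits, and up to 3 called genes of each pathway list. Members called in at least 1 comparison beyond these were added after their values were seen. The regulators Nrf1, Esrra, Tfam and Ppargc1a were to be named whether called or not, and no value of Ppargc1a is given here. Promoter sequences are RefSeq's on GRCm38.p6.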

Additional observations from a re-analysis of the deposited data

Results flagged for a closer look

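The injury models at the same time differed in 8 of 77 members, which limma's test of UUO minus folic acid day 14 passed as lower in UUO. Over all genes tested, 1.75% were lower and 1.28% higher. Each of the 8 calls ended without array 7, and with only the 6 arrays compared. The log2 differences were -2.47 for Atp5g1, -1.81 for Cyc1, -1.70 for Ndufb10, -1.59 for Ndufa12, -1.53 for Ndufb4, -1.13 for Atp5g3, -0.92 for Cox6a1 and -0.88 for Atp5mpl. In each of these 8 members the 3 UUO arrays lay below the 3 folic acid arrays, as in 58 of all 77 members and 11.1% of all genes tested. The same arrays gave the calls, so this adds no support to them. The mean of 16 proximal tubule markers lay lower in UUO too, and with it as a covariate 0 members passed. The 2 groups do not overlap in that mean (5.37 to 5.83 in UUO, 6.87 to 9.08 on folic acid day 14). This fit therefore extrapolates and cannot separate the group from the markers.

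Between time points after folic acid, 1 member of 77 (1.3%) differed by limma's test of day 14 minus day 3, against 3.05% of all genes tested. This was Cox7a1 at 1.63 on the log2 scale. Leaving out any of 11 arrays or using no filter ended the call. Its 3 arrays of day 14 lay above the 3 of day 3, as in 16 of the 77 members and in 1266 of the 13523 genes tested. The day 3 values of Cox7a1, 4.95 to 5.16, were dim, near the array medians over all probe sets (4.93 to 5.06).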

How the results depend on the processing

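Numbers of members that passed are given for folic acid day 3, day 7, day 14 and UUO against uninjured kidney, then UUO against folic acid day 14. They were 8, 10, 6, 28 and 8, with 19 by the F test, and the cause of the changes below was not tested unless a fit's construction gives it. For the counts under other settings, here and above, the share of all genes that passed is not given. Changes between settings can therefore not be read as particular to the members. After quantile normalization they were 22, 20, 3, 43 and 14, with 32 by the F test. Array weights gave 22 on day 3, 20 on day 7, 45 in UUO and 38 by the F test. With only the 6 arrays compared, and so fewer arrays, they were 26 on day 3, 1 on day 14, 47 in UUO, 0 for UUO against day 14, 3 for UUO against day 3 and 0 for day 14 against day 3. A 60th percentile filter gave 16 for UUO against day 14, no filter gave 0 for day 14 against day 3, and averaged probe sets gave 3 on day 14. Trend and robust options and median centring kept all of these counts within 1.5 times.

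The proximal tubule covariate gave 11 members on day 14, 0 in UUO, 0 for UUO against day 14, 0 for day 14 against day 3 and 7 by the F test. It moved the median difference to 0.30 on day 3, 0.19 on day 7, 0.18 in UUO, -0.086 for UUO against day 14, -0.11 for day 14 against day 3, 0.093 for day 14 against day 7 and -0.024 for UUO against day 7. It also turned the calls of days 3 and 7 from mostly lower to 9 higher and 0 lower, and 6 higher and 1 lower. The distal nephron covariate gave 0, 3, 10, 0 and 0 members, 0 for day 14 against day 3 and 4 by the F test. Its medians were 1.04 on day 3, 0.64 on day 7, 0.73 in UUO, 0.37 for UUO against day 14, -0.62 for day 14 against day 3, -0.20 for day 14 against day 7 and 0.13 for UUO against day 7. The macrophage covariate gave 1, 0, 0, 3 and 0 members and 0 for day 14 against day 3. Its medians were 0.18 on day 7, 0.62 on day 14, 0.42 for day 7 against day 3, 0.81 for day 14 against day 3 and -0.79 for UUO against day 7. UUO overlaps with neither uninjured kidney nor folic acid day 14 in any of these marker means, so those fits extrapolate. The distal nephron mean also does not overlap for days 3 and 7 against uninjured kidney, day 14 against day 3 or day 7, and UUO against day 7. The proximal tubule mean does not overlap for day 3 against uninjured kidney and day 14 against day 3. The macrophage mean does not overlap in any comparison given for it. These fits extrapolate too. Without arrays 4, 7 and 8 the counts were 16 on day 3, 25 on day 7, 1 on day 14, 0 for UUO against day 14, 0 for day 14 against day 3 and 2 for UUO against day 3. The medians were then -0.19 on day 14, -0.47 for UUO against day 14 and -0.031 for day 14 against day 3.

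Called members changed sign in at least 1 setting in 4 of 8 cases on day 3, 5 of 10 on day 7, 1 of 6 on day 14, 16 of 28 in UUO and 5 of 8 for UUO against day 14. With the distal nephron covariate Cox7a1 gave 0.21, Sdhd 0.063 and Ndufa5 0.037 on day 3, and Uqcrfs1 gave 0.12 and Cox5b 0.018 on day 7. In UUO with it Uqcrfs1 gave 0.47, Ndufa9 0.54, Cox7a1 0.61, Cyc1 0.37, Cox5b 0.37, Atp5a1 0.23, Atp5b 0.46, Atp5g3 0.39, Atp5h 0.029, Cox6c 0.24, Cox7c 0.48, Ndufa8 0.12, Ndufb4 0.33, Ndufb9 0.78, Ndufc1 1.01 and Ndufv2 0.091. Against day 14 with it, Atp5g1 gave 0.056, Cox6a1 0.15, Atp5g3 0.27, Ndufa12 0.23 and Ndufb4 0.084 in UUO. With the proximal tubule covariate Ndufc1 gave 0.16 in UUO. With the macrophage covariate Sdha gave 0.055, Uqcrfs1 0.18, Ndufb9 0.39 and Sdhd 0.018 on day 7, and Sdha gave 0.57 on day 14. All of these covariate fits were between groups that do not overlap in the marker mean, so they extrapolate. With averaged probe sets Uqcr10 gave -0.29 on day 3. Of these values none passed, with adjusted p from 0.644 to 1.

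Leaving out each array in turn gave 5 to 18 members on day 3, 4 to 19 on day 7, 0 to 8 on day 14, 15 to 40 in UUO, 0 to 25 for UUO against day 14 and 4 to 44 by the F test. It gave 0 to 3 for day 14 against day 3, 0 to 1 for day 14 against day 7 and for UUO against day 7, and 0 for UUO or day 7 against day 3. Calls that held through every omission were 4 of 8 on day 3, 3 of 10 on day 7 and 0 of 6 on day 14. They were 12 of 28 in UUO and 0 of 8 for UUO against day 14. The medians ran from -0.31 to -0.20 on day 3, -0.61 to -0.05 on day 7, -0.11 to 0.34 on day 14, -0.85 to -0.74 in UUO and -1.11 to -0.66 for UUO against day 14. No paired analysis was possible because the groups share no replicate numbers. The data hold 3 arrays a group and no detection calls.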

Other observations

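Probe sets of one member did not always move together. Of the 28 members lower in UUO than in uninjured kidney, 11 had another tested probe set, and of these 14 other probe sets 13 pointed the same way and 5 passed. On folic acid day 3, 5 of 8 members had another one, and of these 6 probe sets 2 pointed the same way, 4 the opposite way and 0 passed (limma, adjusted over all 21225 probe sets tested). Over the 46 other probe sets of members that were tested, 7 were lower and 0 higher in UUO, and 38 differences were negative.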
